A study of Mus musculus with 12 samples.

Results

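The genes described are 130 expressed pseudogenes of the mouse whose names end in -ps or in -ps and a number. They were chosen by name and by level, with rows of the same name summed: 1 TPM or more (a gene's share of the transcripts in a library after correction for gene length) in at least 3 of 12 libraries. The deposited table held 55678 gene names, of which 1638 ended in -ps and 133 of those reached the level. A further 3 names were left out of the set, Atp6v0c-ps2 and the names that begin with H2-. The level used the same libraries that are compared below: 74 pseudogenes reached it within each strain, 32 in BALB/c only, 13 in B6 only and 11 only when libraries of both strains were counted together. A pseudogene that is low in one strain could enter through the other alone, so the counts over the set are descriptions of it. At the edge of the choice, the third highest library was at 1.02 TPM for Styx-ps and 1.03 TPM for both Rbx1-ps and Ncoa4-ps, which entered. It was at 0.997 TPM for both Ap2m1-ps and Rps24-ps3 and 0.949 TPM for Smkr-ps, which did not.

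RNA came from 1.5 mm punches of the medial prefrontal cortex of 12 mice aged 9 to 10 weeks, 1 library per animal. One inbred strain was C57BL/6JmsSlc (here B6), and the other was BALB/cCrSlc (here BALB/c). In each strain 3 animals were held in restrainers for 6 h a day on 21 consecutive days (chronic restraint stress, CRS) and 3 controls were handled without restraint. The labels named no transgene or allele beyond the strain, so the groups differ only by strain and treatment as labelled.

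A processed pseudogene is a copy of a spliced messenger RNA that was reverse transcribed and inserted elsewhere in the genome, so it lacks the introns of its parent gene. Ribosomal protein genes have many such copies in mammals. Because a copy can keep nearly the whole sequence of its parent, a short read may fit both, and copies can be present in one strain's genome and absent or different in another's. The parent of each pseudogene was taken from its name (Rps2 for Rps2-ps10). This gave a parent for 111 pseudogenes (89 parents, 32 of them ribosomal protein genes with 50 pseudogenes), and 5 more pseudogenes were given a parent by symbol after the table was seen (4 parents). The other 14 had none.

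The name did not always mean a processed copy. GENCODE M21, an annotation of GRCm38, held 116 of the 130 genes, 97 under the same name and 19 by position. It typed 95 as processed pseudogenes, 9 of these as transcribed. The other 21 were 8 protein-coding genes, 5 transcribed unprocessed, 4 unprocessed and 3 transcribed unitary pseudogenes, and 1 long noncoding RNA. Tmem181c-ps and Tmem181b-ps, for example, are typed as unprocessed and transcribed unprocessed copies of a membrane protein gene. Within these 116, 68 overlapped no other gene, 21 lay within or over a gene on the same strand, and 27 overlapped a gene on the other strand only.

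The sequences below show how close pseudogene and parent are for 6 of the 7 pairs with the largest strain differences in the pseudogene; the pair of Rps2-ps10 is not shown. Each pair is the same stretch of the parent's coding sequence, chosen where the transcripts differ most, with the bases that differ in capitals. Each run is 120 bases, from M21 transcripts on GRCm38, which is the sequence of a C57BL/6J mouse. Rpl3-ps1 at chrX:13203269-13203388 (plus strand) was set against Rpl3 at chr15:80079722-80079841 (minus strand). Rpl35a-ps2 at chr1:181242105-181242224 (minus strand) was set against Rpl35a at chr16:33057475-33058730 (plus strand). Tma7-ps at chr1:171711136-171711255 (plus strand) was set against Tma7 at chr9:109078418-109082194 (minus strand). Rps18-ps6 at chr13:97760145-97760264 (minus strand) was set against Rps18 at chr17:33952058-33952279 (minus strand). Rnps1-ps at chr6:7982840-7982959 (minus strand) was set against Rnps1 at chr17:24421826-24422243 (plus strand). Ndufa12-ps at chr5:130188468-130188587 (plus strand) was set against Ndufa12 at chr10:94199973-94203347 (plus strand). The pseudogene runs are unbroken in the genome, and the parent runs span introns except that of Rpl3.
Rpl3-ps1: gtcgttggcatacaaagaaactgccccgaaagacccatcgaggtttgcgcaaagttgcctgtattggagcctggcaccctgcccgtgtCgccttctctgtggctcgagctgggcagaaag
Rpl3: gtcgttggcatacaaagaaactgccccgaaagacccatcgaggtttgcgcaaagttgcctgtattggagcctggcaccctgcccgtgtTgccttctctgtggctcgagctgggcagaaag
Rpl35a-ps2: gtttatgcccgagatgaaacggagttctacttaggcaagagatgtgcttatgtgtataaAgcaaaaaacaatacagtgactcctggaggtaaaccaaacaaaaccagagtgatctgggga
Rpl35a: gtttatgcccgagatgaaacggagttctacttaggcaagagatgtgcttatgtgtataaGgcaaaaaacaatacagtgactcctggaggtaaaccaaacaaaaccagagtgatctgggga
Tma7-ps: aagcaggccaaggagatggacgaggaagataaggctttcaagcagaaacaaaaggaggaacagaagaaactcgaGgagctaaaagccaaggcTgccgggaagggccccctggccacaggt
Tma7: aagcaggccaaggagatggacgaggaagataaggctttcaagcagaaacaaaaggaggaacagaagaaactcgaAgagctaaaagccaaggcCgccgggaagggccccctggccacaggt
Rps18-ps6: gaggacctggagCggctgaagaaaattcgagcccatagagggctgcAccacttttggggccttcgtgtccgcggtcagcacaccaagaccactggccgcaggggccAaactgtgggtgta
Rps18: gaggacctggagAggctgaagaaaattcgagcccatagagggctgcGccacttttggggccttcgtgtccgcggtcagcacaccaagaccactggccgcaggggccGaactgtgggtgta
Rnps1-ps: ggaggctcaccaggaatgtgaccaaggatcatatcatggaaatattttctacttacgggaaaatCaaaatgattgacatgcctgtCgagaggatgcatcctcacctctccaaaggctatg
Rnps1: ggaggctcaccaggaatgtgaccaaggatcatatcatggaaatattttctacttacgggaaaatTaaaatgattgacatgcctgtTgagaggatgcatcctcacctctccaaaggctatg
Ndufa12-ps: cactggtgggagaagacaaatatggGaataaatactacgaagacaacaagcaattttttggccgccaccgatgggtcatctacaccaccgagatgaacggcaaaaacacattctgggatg
Ndufa12: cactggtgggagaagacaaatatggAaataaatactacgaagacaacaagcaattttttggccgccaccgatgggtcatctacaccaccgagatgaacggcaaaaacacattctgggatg
Only 1 base differed within the runs shown for Rpl3, Rpl35a and Ndufa12, 2 for Tma7 and Rnps1, and 3 for Rps18. Over the parent's whole coding sequence, Rpl3-ps1 had 99.6% identical bases, Rpl35a-ps2 99.7%, Tma7-ps 99.0% and Rps18-ps6 99.1%. The identity of Rnps1-ps and Ndufa12-ps was 91.3% each, as the annotated copies lack 75 and 36 bases of the coding sequence.

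The close match held for most of the set. The parent's coding sequence could be placed on 99 pseudogenes, with a median of 99.1% identical bases (range 29.9% to 100%, the lowest for Usf2-ps1). Missing bases count as not identical: Usf2-ps1 had 0 mismatches and 730 gap bases against a coding sequence of 1041 bases. A reading frame as long as the parent's, from its start codon, was kept in 57 of the 99. Split into words of 31 bases, the median pseudogene transcript shared 88.8% of its words with another gene, and 15 pseudogenes shared every word with the parent. Reads from within such a shared stretch cannot be told apart between parent and copy, and the level printed for each is how the authors' quantification divided them. Levels of single pseudogenes and of their parents are therefore uncertain throughout, and the BALB/c sequence at these positions was not analysed here.

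Every library summed to the same total, so its depth is unknown, and between 14805 and 15542 genes reached 1 TPM. The Rn18s-rs5 RNA took 3.97% of all TPM in a single library, BALB/c CRS replicate 12, against 0.0307% to 0.169% in the other 11. The defining markers of excitatory and inhibitory neurons, astrocytes, oligodendrocytes, microglia and endothelium were present at 1 TPM or more in all 12 libraries (29 of 29 genes). The 5 oligodendrocyte markers summed to 2258 to 8773 TPM in B6 and 425 to 2795 TPM in BALB/c, and the 5 striatal markers to 75.4 to 1638 TPM in B6 and 46.7 to 182 TPM in BALB/c. These lists move with strain but also vary widely within B6, and their strain ranges overlap. The lowest striatal sum in B6, 75.4 TPM, was that of control replicate 9. What part these lists have in the strain differences below was not tested. In bulk tissue, fewer cells of a type and less RNA per cell cannot be told apart.

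The first comparison asked which pseudogenes differ between the strains, averaged over treatment. Of the 5 largest differences 4 were in copies of ribosomal protein genes, Rpl3-ps1, Rpl35a-ps2, Rps2-ps10 and Rps18-ps6, with Tma7-ps as the other, all at 10.0 TPM or less in B6. By limma across all 16423 genes tested, at a Benjamini-Hochberg adjusted p under 0.05, 30 pseudogenes were higher and 6 lower in BALB/c, 27.7% of the 130. The background for this comparison was 18.4% of all genes, 4.05% higher and 14.3% lower. Of the 30 higher pseudogenes, 20 had entered the set through BALB/c alone, and 4 of the 6 lower ones through B6 alone. The 20 include Rpl3-ps1, Rpl21-ps15, Tma7-ps, Ndufa12-ps, Rnps1-ps, Itpa-ps1 and Glo1-ps, which are described below. Strain p-values of these 20, and of the 4 admitted through B6 alone, use the values that admitted them and are descriptions only. Where all B6 libraries are listed at 0, these add no spread to the SE. All 6 BALB/c libraries lay above all 6 B6 libraries for 26 pseudogenes and below them for 4, while 100 overlapped. Over all genes 8.95% were separated in this way, 2.01% above and 6.94% below. Differences are in log2(TPM + 1), which understates those of low genes, and positive values mean higher in BALB/c.

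Among copies of small ribosomal subunit genes, Rps2-ps10 had the highest level of the set in BALB/c and a low level in B6. It was at 9.03, 8.94 and 5.88 TPM in the B6 controls, 10.0, 5.54 and 6.46 TPM in B6 after CRS, 1461, 1557 and 1539 TPM in BALB/c controls and 1436, 1564 and 1392 TPM in BALB/c after CRS. The strains did not overlap, and within a strain the treatments did. The log2 difference was 7.46 (SE 0.13, limma adjusted p 6.68e-13). Its parent Rps2 went the other way, from 726 ± 72.9 TPM in B6 to 19.4 ± 2.23 TPM in BALB/c (SD, n = 6 per strain), a difference of -5.16 (SE 0.09, limma adjusted p 6.32e-13). Rps2 with all its -ps copies summed to 734 ± 73.4 TPM in B6 and 1512 ± 69.9 TPM in BALB/c (SD, n = 6 per strain), 1.05 higher on the log2 scale (SE 0.08, limma adjusted p 1.52e-06).

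Rps18 had a pair of copies in the set. Rps18-ps6 was at 2.51, 1.40 and 1.39 TPM in the B6 controls, 1.96, 4.90 and 1.58 TPM in B6 after CRS, 353, 404 and 339.9 TPM in BALB/c controls and 350.2, 392 and 344 TPM in BALB/c after CRS. Rps18-ps5 ranged from 2.55 to 5.89 TPM in B6 (median 4.22) and from 132 to 162 TPM in BALB/c (median 139.5). No B6 library reached a BALB/c library for either copy. The log2 differences were 6.87 (SE 0.18) and 4.79 (SE 0.15), with adjusted p 4.61e-11 for Rps18-ps6 by limma. Rps18 itself was at 586 ± 55.9 TPM in B6 and 30.1 ± 3.22 TPM in BALB/c (SD, n = 6 per strain), a difference of -4.24 (SE 0.09, limma adjusted p 4.67e-12). Here the parent's lower mean, by 556 TPM, stood beside gains of 361 TPM in Rps18-ps6 and 139.6 TPM in Rps18-ps5. The summed family was 593 ± 56.6 TPM in B6 and 539 ± 41.0 TPM in BALB/c (SD, n = 6 per strain), which overlapped and did not pass (log2 difference -0.14, SE 0.08, limma adjusted p 0.282). M21 types both copies as protein-coding, and Rps18-ps6 overlaps an exon of Gm26619 on the other strand, which also shares 96.6% of its words.

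Rps7-ps3 had more signal in B6 than Rps2-ps10 and both Rps18 copies. It overlaps Rpl7a-ps12 on the same strand, which adds to the uncertainty of its level. Rps7-ps3 ranged from 27.4 to 54.8 TPM in B6 (median 42.1) and from 376 to 466 TPM in BALB/c (median 396), with no overlap (log2 difference 3.29, SE 0.12, limma adjusted p 2.04e-09). Rps7 fell by 1.47 on the same scale (SE 0.08, limma adjusted p 4.93e-08), from 444 ± 37.1 to 159 ± 14.4 TPM (SD, n = 6 per strain). The sum of the family was 486 ± 28.0 TPM in B6 and 565 ± 38.2 TPM in BALB/c (SD, n = 6 per strain), a difference of 0.22 (SE 0.06, limma adjusted p 0.034).

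Among copies of large subunit genes, Rpl3-ps1 was listed at 0 in all 6 B6 libraries. In BALB/c it was at 431, 472 and 384 TPM in controls and 394, 499 and 480.0 TPM after CRS (difference on the log2(TPM + 1) scale 8.79, SE 0.08, limma adjusted p 1.05e-15). Rpl3 was at 654 ± 50.6 TPM in B6 and 118 ± 9.69 TPM in BALB/c (SD, n = 6 per strain), with a log2 difference of -2.46 (SE 0.07, limma adjusted p 1.96e-10). The family sum, 655 ± 50.6 against 562 ± 55.1 TPM (SD, n = 6 per strain), did not pass (-0.22, SE 0.08, limma adjusted p 0.0746).

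Rpl35a-ps2 was at 1.13, 1.86 and 0 TPM in the B6 controls, 0, 0.773 and 3.45 TPM in B6 after CRS, 536, 689 and 552 TPM in BALB/c controls and 576, 597 and 555 TPM in BALB/c after CRS. No library of one strain came near the other, and the log2 difference was 8.26 (SE 0.32, limma adjusted p 2.79e-09). Rpl35a fell by 1.31 (SE 0.09, limma adjusted p 5.1e-07), from 625 ± 76.0 to 249.9 ± 17.8 TPM (SD, n = 6 per strain). Their family was 0.42 higher in BALB/c (SE 0.09, limma adjusted p 0.00874). Every word of Rpl35a-ps2 also occurs in Rpl35a-ps6, which is not in the set.

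Rpl21-ps15 differed from the others in how little it added. It was listed at 0 in all 6 B6 libraries and was at 27.8 to 42.8 TPM in BALB/c (median 28.8), with a log2 difference of 5.03 (SE 0.11, limma adjusted p 3.59e-12). Rpl21 went from 439.8 ± 26.2 to 109 ± 7.33 TPM (SD, n = 6 per strain), 331 TPM lower against a gain of 32.1 TPM in the copy. The Rpl21 family as a sum was lower in BALB/c (log2 difference -1.59, SE 0.07, limma adjusted p 1.44e-08). Outside those 10, Rplp0-ps1 added less still, listed at 0 TPM in B6 and at 0.750 to 2.71 TPM in BALB/c. Its parent Rplp0 was at 218 to 305 TPM in B6 and 114 to 142 TPM in BALB/c. All words of Rpl21-ps15 occur in other genes, the most (93.2%) in Gm13370, which is not among the summed -ps names.

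**Figure D1:**
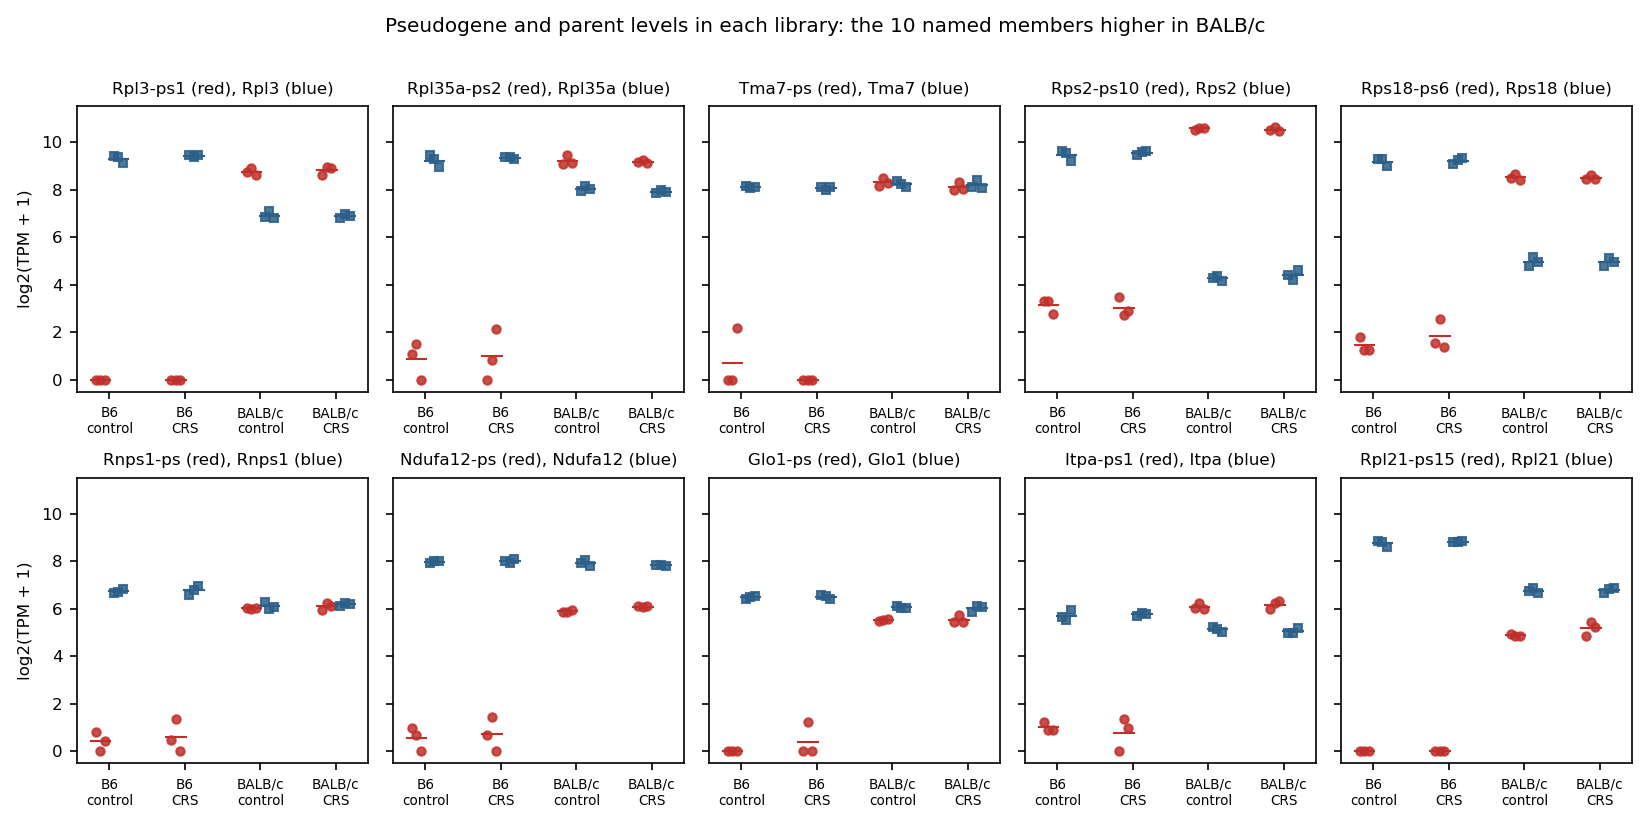
Levels of the 10 pseudogenes with the largest differences in the BALB/c direction (red circles) and of their parents (blue squares), as log2(TPM + 1), in each of 3 libraries per group. Short lines are group means. The pseudogenes are near 0 in B6, at most 10.0 TPM in the case of Rps2-ps10, and their parents are lower in BALB/c except for Tma7 and Ndufa12, whose strains overlap.

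Copies of genes that encode no ribosomal protein were higher in BALB/c too. Tma7-ps, a copy of a small protein associated with the translation machinery, was at 0, 0 and 3.50 TPM in the B6 controls, at 0 in the 3 B6 CRS libraries, at 279.6, 361 and 307 TPM in BALB/c controls and 255, 315 and 261 TPM in BALB/c after CRS. One B6 control thus carried all of its signal in that strain. The log2 difference was 7.84 (SE 0.31, limma adjusted p 2.76e-09). Tma7 did not pass (0.14, SE 0.07, limma adjusted p 0.212) and its strains overlapped at 269 ± 10.1 and 297 ± 27.9 TPM (SD, n = 6 per strain). The summed pair was 270.0 ± 10.6 TPM in B6 and 594 ± 55.7 TPM in BALB/c (SD, n = 6 per strain), 1.13 higher (SE 0.07, limma adjusted p 3.03e-07).

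Ndufa12-ps, a copy of an accessory subunit of respiratory complex I, ranged from 0 to 1.75 TPM in B6 (median 0.604) and from 56.7 to 67.5 TPM in BALB/c (median 63.5). Ndufa12 overlapped between strains at 255 ± 13.4 and 233 ± 15.6 TPM (SD, n = 6 per strain) and did not pass (-0.13, limma adjusted p 0.201). The summed pair ranged from 240.0 to 274.7 TPM in B6 and from 281.0 to 319.1 TPM in BALB/c, with no overlap. Ndufa12-ps lies within Rabgef1 on the same strand, so its own value is uncertain for this reason too.

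The other 3 of the 10 were Rnps1-ps, Itpa-ps1 and Glo1-ps. Rnps1 encodes an RNA-binding protein of the splicing machinery, Itpa a pyrophosphatase that removes noncanonical purine nucleotides, and Glo1 the glyoxalase that detoxifies methylglyoxal. Rnps1-ps ranged from 0 to 1.57 TPM in B6 and from 60.3 to 73.8 TPM in BALB/c. Itpa-ps1, which lies within Ttc17 on the same strand and is uncertain for that reason too, ranged from 0 to 1.58 TPM and from 61.9 to 79.3 TPM, and Glo1-ps from 0 to 1.33 TPM and from 41.8 to 51.9 TPM. None of these 3 pseudogenes overlapped between strains, with log2 differences of 5.55 (SE 0.20), 5.23 (SE 0.19) and 5.32 (SE 0.19). Their parents were all lower in BALB/c, Rnps1 by a log2 difference of -0.60, Itpa of -0.64 and Glo1 of -0.45. All 3 families were higher, by 0.34, 0.93 and 0.30 (adjusted p 0.0107, 1.83e-05 and 0.00949, limma).

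In BALB/c some copies were listed above their parent. That held in all 6 BALB/c libraries, and in none of the B6 libraries, for 8 pseudogenes: Rps2-ps10, Rps18-ps5, Rps18-ps6, Rps7-ps3, Rpl3-ps1, Rpl35a-ps2, Itpa-ps1 and Tdg-ps2. Tdg-ps2, a copy of thymine DNA glycosylase, was at 0 to 0.281 TPM in B6 and 12.6 to 19.3 TPM in BALB/c, with Tdg at 25.9 ± 1.45 and 12.7 ± 1.25 TPM (SD, n = 6 per strain). A second copy, Tdg-ps, ranged from 0 to 0.0938 TPM and from 2.21 to 2.88 TPM. A different 8 were above their parent in all 12 libraries: Hmga2-ps1, Llph-ps2, Mrpl23-ps1, Nutf2-ps1, Rpl10-ps3, Rpl28-ps1, Rpl31-ps8 and Rps23-ps1. Rpl28-ps1, Rpl31-ps8 and Rps23-ps1 share 100% of their 31-base words with the parent. Llph-ps2, Mrpl23-ps1, Nutf2-ps1 and Rpl10-ps3 share 94.6% to 96.2%, so their order depends on how shared reads were divided. Hmga2 itself reached at most 0.155 TPM. Nutf2-ps1, a copy of a nuclear transport factor, was at 55.9 ± 4.67 TPM in B6 and 55.7 ± 3.09 TPM in BALB/c, against 19.1 ± 3.96 and 18.1 ± 5.20 TPM for Nutf2 (SD, n = 6 per strain).

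**Figure D2:**
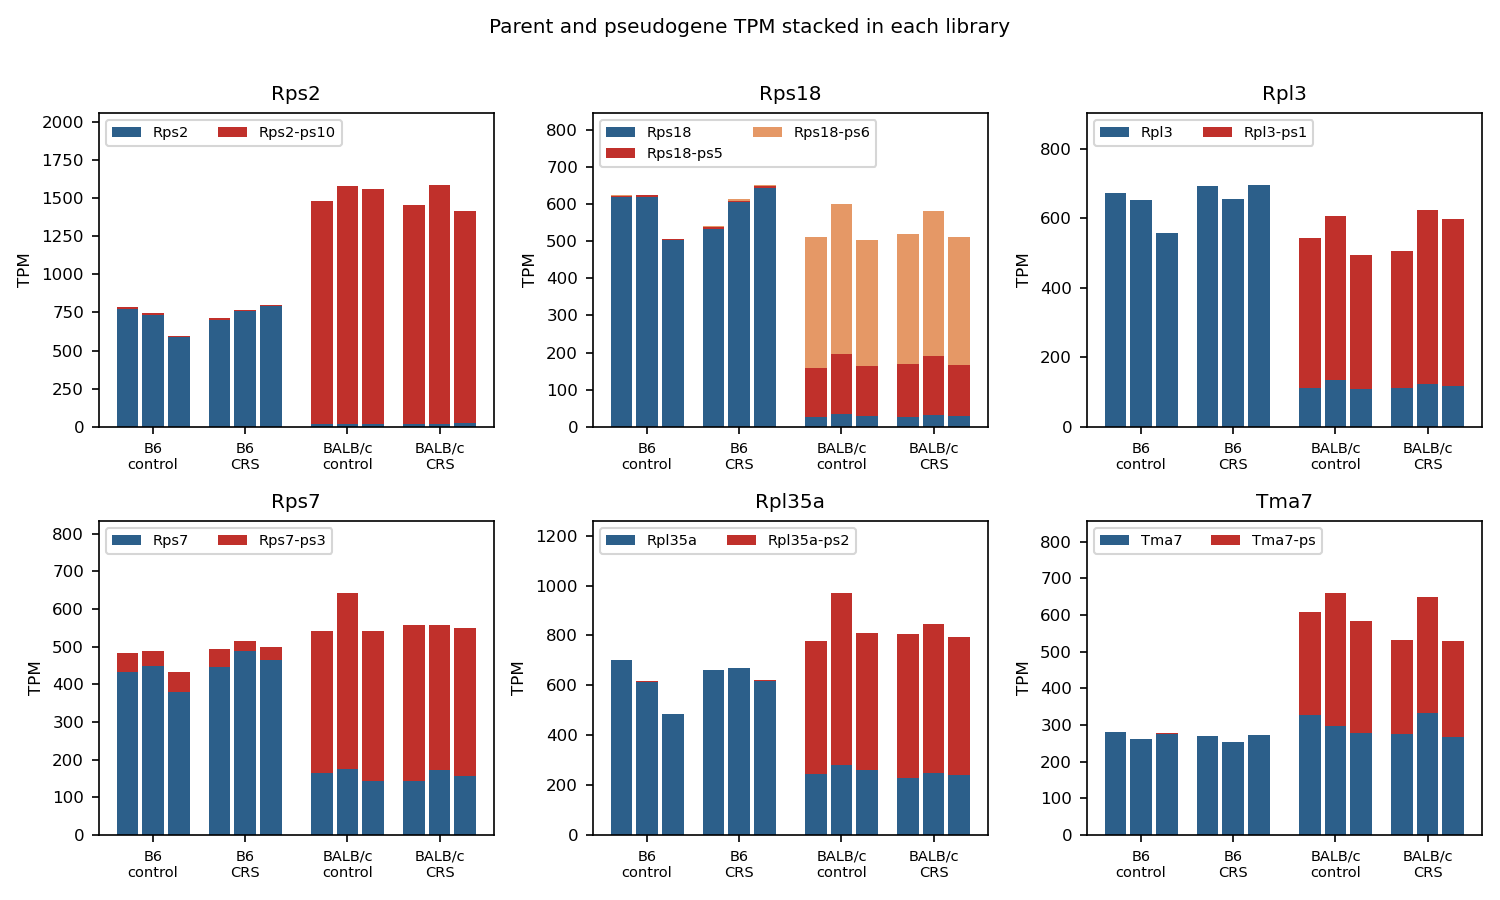
TPM of a parent (blue) and its pseudogenes (red, and orange for Rps18-ps6) stacked in each library for 6 families, 3 libraries per group; the axis starts at 0. The copies make up almost nothing of the bars in B6 except 5.32% to 12.6% for Rps7-ps3, and 98.3% to 98.9% of the Rps2 family in BALB/c.

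Only 3 pseudogenes were called lower in BALB/c with no overlap between strains. Gapdh-ps16, a copy of the glycolytic enzyme gene, was at 6.12, 8.53 and 8.75 TPM in the B6 controls, 10.9, 8.06 and 10.6 TPM in B6 after CRS, 0.256, 0 and 1.54 TPM in BALB/c controls and 0.718, 0 and 1.49 TPM in BALB/c after CRS. Its log2 difference was -2.65 (SE 0.26, limma adjusted p 2.26e-05), and Gapdh was lower too (-0.58, SE 0.08, limma adjusted p 0.000341), at 3085 ± 337 and 2048 ± 55.3 TPM (SD, n = 6 per strain). Ccl19-ps2, named for a chemokine gene, ranged from 0.413 to 2.05 TPM in B6 and from 0 to 0.207 TPM in BALB/c (-1.05, SE 0.18, limma adjusted p 0.00228), low in both strains. Gapdh-ps16 and Ccl19-ps2 both entered the set through B6 alone, so their strain p-values are descriptions only.

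Tpt1-ps3 was the only abundant one of the 3. It was at 462 ± 36.9 TPM in B6 and 360.1 ± 36.6 TPM in BALB/c (SD, n = 6 per strain), with a log2 difference of -0.36 (SE 0.08, limma adjusted p 0.00966). Its parent Tpt1, a translationally controlled protein gene, differed by -0.30 (SE 0.09, limma adjusted p 0.0427). The transcript of Tpt1-ps3 is identical to the coding sequence of Tpt1 in every base, so no read within it can be told from Tpt1 by sequence. The other called ones, Pisd-ps1, Tpt1-ps6 and Rpl14-ps1, overlapped between strains. Mrpl23-ps1 was the fourth with no overlap, at 67.4 to 81.0 TPM in B6 and 50.4 to 66.7 TPM in BALB/c, and did not pass (-0.26, limma adjusted p 0.0549).

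Parents were lower far more often than higher. By limma, 34 of the 88 parents tested were lower in BALB/c and 1 higher (Fabp3), 39.8% against the background of 18.4%. The median parent difference was -0.22, beside -0.08 over all genes. Beside the 25 higher pseudogenes with a parent by name, the parent was called lower for 18, not called for 7 and higher for 0. These counts are per pseudogene, over 23 distinct parents, with Rps18 and Tdg counted once per copy. The 7 not called were the parents of Bod1-ps, Gemin6-ps, Ndufa12-ps, Oaz2-ps, Rab7-ps1, Tent2-ps1 and Tma7-ps. The median parent difference was -0.60 beside the 25 higher pseudogenes and -0.18 beside the 80 pseudogenes not called. Parent and copy were measured in the same libraries and share reads, so these are not independent values. The 25 were also set apart by their strain call, and many had entered the set through BALB/c alone. Of 82 ribosomal protein genes tested, many of them parents here, 39% were called, with a median of -0.24. Under median-of-ratios scaling, which moves the median of all genes to near 0, 22 parents were lower and 3 higher.

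**Figure D3:**
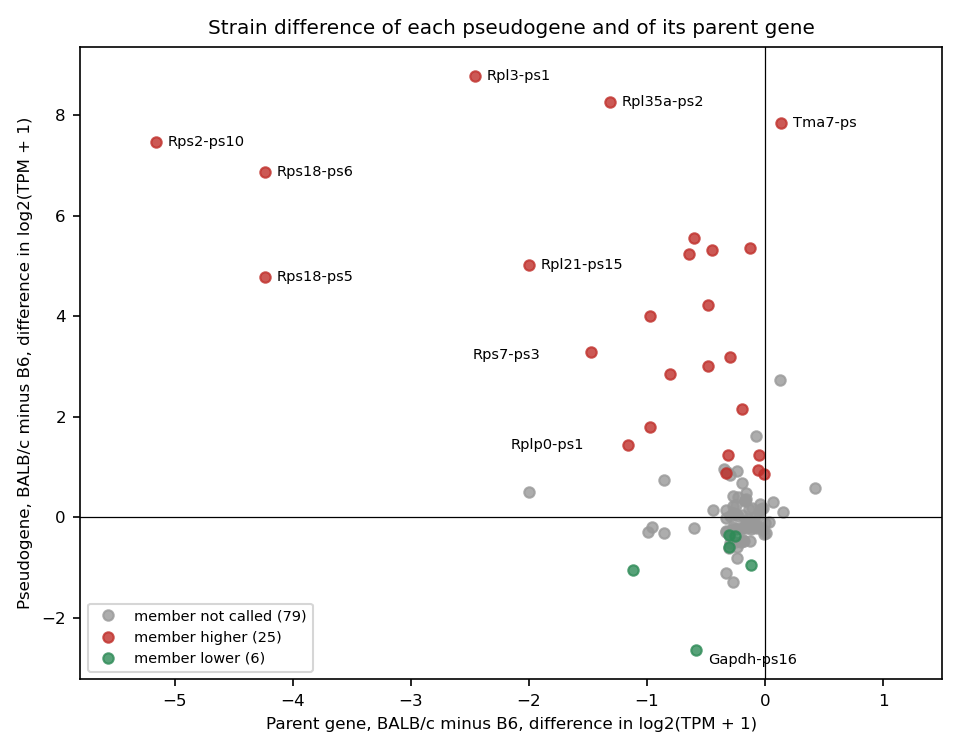
Difference in log2(TPM + 1) between BALB/c and B6 of 110 pseudogenes (vertical) against that of their parents (horizontal), averaged over treatment; colour shows the pseudogene's call by limma. Pseudogenes higher in BALB/c (red) lie to the left of 0 except Tma7-ps, and Rps2-ps10 and the 2 Rps18 copies lie farthest left.

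Summing each parent with all its -ps names gave 89 families. In the table refitted with these sums, 11 families were higher and 22 lower in BALB/c by limma, against 18.3% of 16313 entries called. Under median-of-ratios scaling the split was 15 higher and 8 lower. Families of the 25 higher pseudogenes were called higher for 11, lower for 4 and not at all for 10. These counts are per pseudogene, over 23 distinct families, with Rps18 and Tdg counted once per copy. The family differed by at least 1 on the log2 scale in 5 cases: Rps2 and Tma7 upward, and Rpl21, Rplp0 and Ccl19 downward.

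Together the 130 pseudogenes summed to 5157 ± 287 TPM in B6 (range 4581 to 5356) and 8725 ± 573 TPM in BALB/c (8086 to 9548; SD, n = 6 per strain). The strains did not overlap. The 94 pseudogenes not called went the other way, from 4485 ± 263 to 4023 ± 309 TPM (SD, n = 6 per strain). The 10 with the largest gains rose by 3917 TPM in sum, more than the 3568 TPM difference of the whole set. Pseudogenes with a parent by name made up 14.4% to 15.2% of the summed TPM of their families in B6 and 27.9% to 28.9% in BALB/c. Both quantities contain the levels that chose the set and are given without a test.

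**Figure D4:**
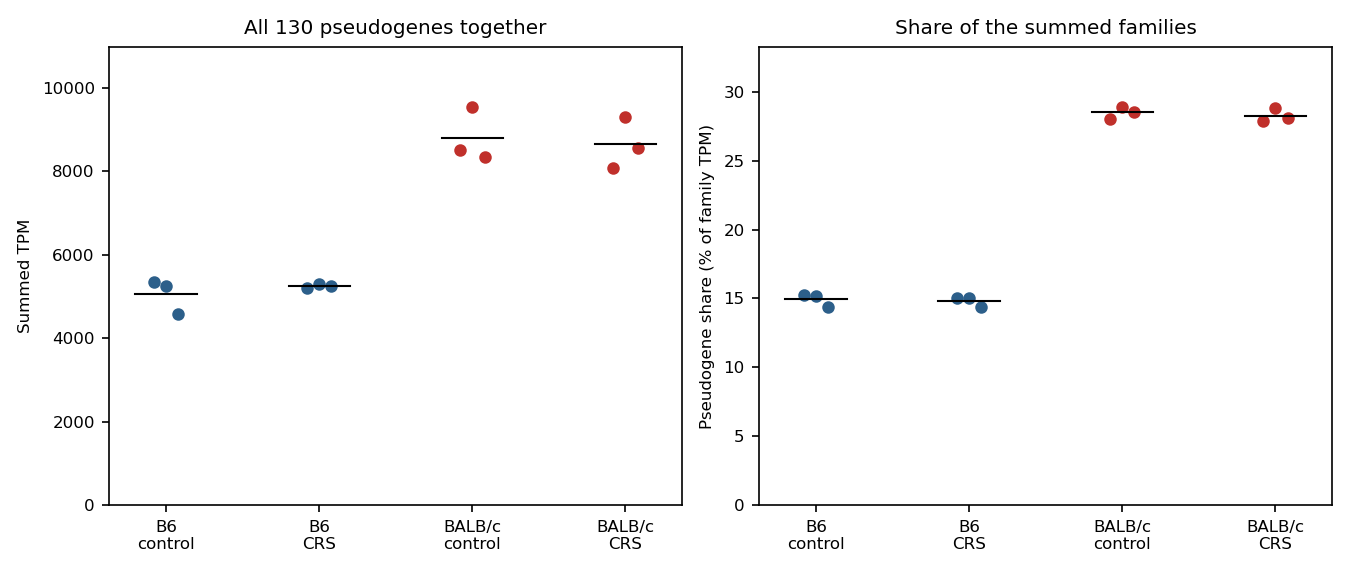
Summed TPM of the 130 pseudogenes (left) and the share that pseudogenes with a parent by name have of the summed TPM of their families (right) in each library; lines are means of 3 libraries and both axes start at 0. B6 libraries (blue) lie at 4581 to 5356 TPM and BALB/c libraries (red) at 8086 to 9548 TPM, with no shift between control and CRS as large as that between strains.

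The strain comparison was also made within each treatment. The means compared come from separate libraries, but the spread was shared, as all libraries were in 1 fit. In controls, 25 pseudogenes were higher and 4 lower in BALB/c, 22.3% of 130, beside 4.73% of all genes (1.36% higher, 3.37% lower). Under CRS, 28 were higher and 3 lower, 23.8% beside 7.70% of all genes (2.37% higher, 5.33% lower). The same 26 pseudogenes were called in both, all 26 in the same direction. The level that chose the set drew on libraries of both treatments, so this agreement was no independent check. Of the 30 called higher averaged over treatment, 20 had entered through BALB/c alone. The share of all genes called in both treatments was not counted. Another 3 were called only in controls (Rpl36-ps2, Rps10-ps2 and Rps27a-ps1) and 5 only under CRS (Morf4l1-ps1, Rab7-ps1, Tmem181b-ps, Tpt1-ps3 and Ube2d-ps). None of these 8 passed as an interaction of strain and CRS. Morf4l1-ps1, a copy of a chromatin reader gene that lies within Lpp on the same strand, was called only under CRS, and its B6 controls stood at 15.8, 31.1 and 28.8 TPM, its B6 CRS libraries at 18.9, 0 and 29.8 TPM, and BALB/c at 108 to 149.8 TPM. Of the 15 pseudogenes whose words all occur in the parent, 14 had a mean of at least 10 TPM and 1 (Tpt1-ps3) was called. Of the 84 with some words that the parent lacks, 24 had such a mean and 27 were called. The median of the mean levels was 126 TPM in the first group and 2.92 TPM in the second. The calls in both groups are for the strains averaged over treatment, where 18.4% of all genes were called. Many of the 27 had entered the set through BALB/c alone, so these counts are descriptions.

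**Figure D5:**
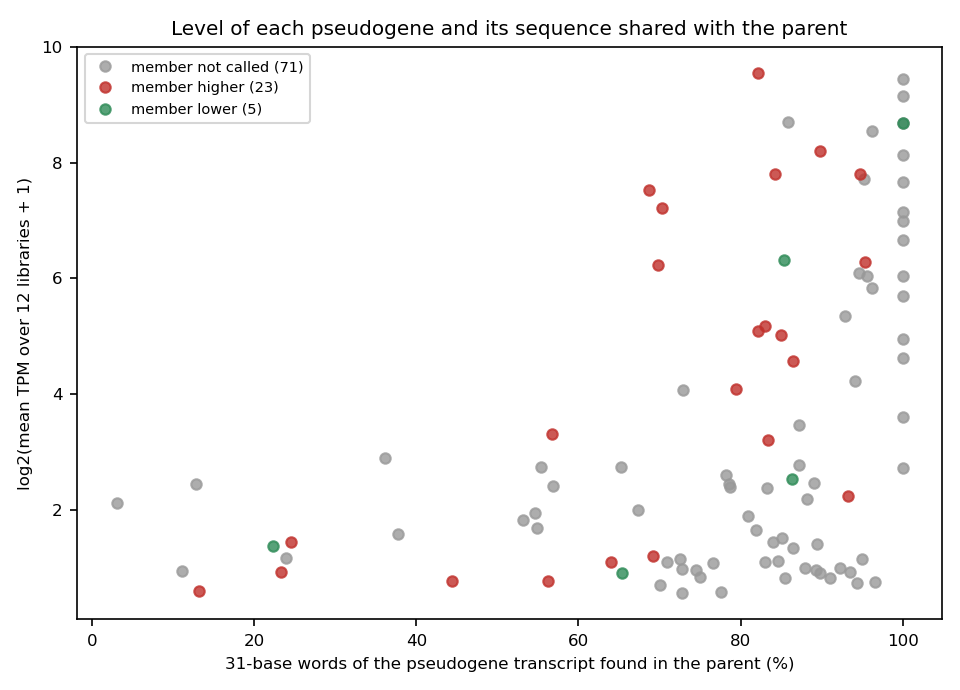
Mean level over 12 libraries, as log2(mean TPM + 1), against the share of 31-base words that a pseudogene transcript has in common with its parent, for 99 pseudogenes. Colour shows the strain call by limma, averaged over treatment. At 100% shared words stand 15 pseudogenes, with a median of 126 TPM and 1 call.

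By the mean over all 12 libraries, which pools the strains, the most abundant pseudogenes after Rps2-ps10 were Rpl31-ps8, Rps23-ps1, Ubb-ps and Rpl28-ps1, and none of these 4 was called. The order differed within strains: in BALB/c the means of Rpl35a-ps2 (584 TPM), Rpl3-ps1 (443 TPM) and Rps7-ps3 (406 TPM) were above those of Ubb-ps and Rpl28-ps1, and in B6 that of Tpt1-ps3 was. Rpl31-ps8 was at 771 ± 102 TPM in B6 and 631 ± 67.3 TPM in BALB/c (SD, n = 6 per strain) and Rps23-ps1 at 613 ± 95.6 and 520.3 ± 52.4 TPM. Rpl28-ps1 was at 430.4 ± 51.9 and 395 ± 21.2 TPM, above its parent Rpl28 at 251 ± 17.3 and 251 ± 9.62 TPM (SD, n = 6 per strain). All 3 share every word with their parents. Ubb-ps, a copy of a polyubiquitin gene, was at 429.6 ± 25.4 and 402 ± 31.5 TPM against 1517 ± 82.3 and 1359 ± 117 TPM for Ubb (SD, n = 6 per strain). The log2 differences of these 4 copies ran from -0.28 to -0.10 with adjusted p of at least 0.0555 (limma).

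Rpl17, Rpl31 and Rpl9 had 3 copies each in the set. Rpl31-ps8 aside, these were low: Rpl17-ps8, Rpl17-ps9, Rpl17-ps10, Rpl31-ps9, Rpl31-ps13, Rpl9-ps4, Rpl9-ps6 and Rpl9-ps7 stayed at or under 6.06 TPM in every library, while Rpl17 was at 551 to 715 TPM and Rpl9 at 725 to 926 TPM. None of the 8 was called, and every one overlapped between strains.

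The second question was whether CRS changed the pseudogenes. By limma, 0 of the 130 passed in each strain and 0 passed as an interaction of strain and CRS, beside 0%, 0.00609% and 0% of all genes. At an unadjusted p under 0.05 there were 13, 6 and 10, beside 4.82%, 3.03% and 2.70% of all genes. In B6, Rpl15-ps3 had the lowest p: it was at 136, 167 and 139 TPM in controls and 117, 86.9 and 105 TPM after CRS, groups that did not overlap (-0.52, SE 0.16, unadjusted p 0.00617, limma adjusted p 1). It shares every word with Rpl15, which was at 241, 251 and 220.3 TPM in controls and 243, 296 and 295 TPM after CRS. In the upward direction Tmem181c-ps was at 5.34, 5.17 and 4.68 TPM and 6.57, 7.98 and 6.32 TPM (0.39, SE 0.14, limma adjusted p 1).

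In BALB/c, Rpl36-ps2 was at 2.39, 1.16 and 0.694 TPM in controls and 3.61, 6.09 and 3.63 TPM after CRS (1.20, SE 0.38, unadjusted p 0.00859, limma adjusted p 1). Rpl9-ps6 was at 6.06, 3.06 and 0 TPM in controls and listed at 0 in all 3 CRS libraries (-1.61, SE 0.63, limma adjusted p 1), and its groups touch at 0. For the interaction, Rps10-ps2 was at 7.86, 6.20 and 7.14 TPM in the B6 controls, 2.80, 2.37 and 5.46 TPM in B6 after CRS, 2.73, 2.97 and 1.32 TPM in BALB/c controls and 6.13, 5.31 and 2.91 TPM in BALB/c after CRS. The interaction was 1.67 (SE 0.42, unadjusted p 0.00173, limma adjusted p 1). Cbx3-ps6, a copy of a heterochromatin protein gene, had the lowest p in the other direction (-0.79, SE 0.27, limma adjusted p 1).

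Other gene classes give the frame for these counts. Of 473 tested processed pseudogenes of other names, 66 were higher and 35 lower in BALB/c, 21.4% in all, and 15.6% were called with a difference of at least 1 on the log2 scale, as were 21.5% of the 130. Among 13314 protein-coding genes with no -ps copy in the set, 396 were higher and 1979 lower (17.8%), and 3% were called with such a difference. Among 82 ribosomal protein genes, many of them parents here, 0 were higher and 32 lower (39%). Of the 3 tested names that end in -rs, 2 were higher. The medians were 0.08 for the 130, 0.07 for other processed pseudogenes, -0.24 for ribosomal protein genes and -0.09 for the protein-coding genes. No test was made between these classes.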

How the data were processed

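RNA-seq of 12 medial prefrontal cortex samples was used. Per the submitters' processing notes, reads were trimmed with cutadapt 2.9 and processed with Salmon and GRCm38; the roles of build and annotation, and Salmon's options, are not given in the sources used here. Per the labels' protocols, libraries were stranded and poly(A)-selected, read as paired 150 bp to about 6 Gb each. The authors deposited 1 table of TPM (147902 rows with gene names, 12 sample columns); the unit was read from columns with the same total. TPM keeps no depth, so no counting error is given.

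Rows of the same name were summed. The 16423 genes that reached 1 TPM in 3 or more libraries were fitted on log2(TPM + 1) with 4 group means in limma 3.58.1 under R 4.3.3 (eBayes with an intensity trend), all libraries in 1 fit, Benjamini-Hochberg adjustment over all genes and a threshold of 0.05. Family sums (parent plus all -ps names) replaced their rows in a second fit. The script was tested on simulated data. Sequences were compared with edlib 1.3.9.post1 and exact 31-base words, using the longest M21 transcript of each pseudogene. Members and lists were chosen with earlier results of these data known. Named genes were the called pseudogenes with no overlap between 6 and 6 libraries (the 10 largest differences each way), the 5 most abundant by the mean over all libraries, the lowest p per CRS contrast and direction, those of parents with 3 or more copies, and 3 on each side of the level threshold. Others were chosen after their values were seen: Rps18-ps5, Rps7-ps3, Tdg-ps, Tdg-ps2, Nutf2-ps1, Morf4l1-ps1, Usf2-ps1 and the genes listed for a count. Some animal numbers occur in both strains (number 9 among controls, numbers 12 and 13 among CRS mice) and are different animals. Alternatives were another scaling, pseudocount 0.1, no filter, a mean of at least 5 TPM, the number as a block, the highest row per name, no trend, and each library left out.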

Additional observations from a re-analysis of the deposited data

How the results depend on the processing

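Of the 36 pseudogenes called between strains, 31 to 36 were shared with each of 18 alternatives that kept the filter at 1 TPM or less, which called 32 to 39. With a mean of at least 5 TPM only 56 pseudogenes were tested, and the counts were 21 averaged over treatment, 17 in controls and 20 under CRS, by construction. The 13 pseudogenes named for being called with no overlap between strains (the 10 largest differences upward and the 3 downward) kept their call and direction wherever they were tested (245 values, largest limma adjusted p 0.0334). These 13 were picked for their calls in the same libraries, and many entered the set only through the strain where they are high. Their stability is therefore no independent check. The direction of some uncalled pseudogenes was not stable. Rpl31-ps9 turned from negative to 0.048 under median-of-ratios scaling, and ran from -0.304 to 0.207 with single libraries left out. With single libraries left out the ranges were -0.041 to 0.107 for Rpl15-ps3, -0.311 to 0.076 for Rpl17-ps9, -0.354 to 0.029 for Rpl9-ps4 and -0.049 to 0.123 for Styx-ps; none of these was called. Without BALB/c CRS replicate 12, which stands apart in 18S RNA, 35 were called. The largest shifts were in parents (26 to 46 called) and family sums (22 to 43) with a library left out, highest without B6 control replicate 9. Counts for CRS and the interaction stayed at 0 under all 19 alternatives. The numbers shared between strains did not pair the samples: correlations of deviations were -0.242, -0.029 and -0.036. With the replicate block, 36 pseudogenes, 27 parents and 22 family sums were called between strains averaged, 28 pseudogenes in each treatment, and 0 for CRS or the interaction. Depth is unknown and limits what can be said of pseudogenes near 0.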

Other observations

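Some pseudogenes were listed at 0 in a library and above 5 TPM in another of the same strain, 17 in all: 7 in B6 only, 7 in BALB/c only and 3 in both. The widest was Pgam1-ps2, a copy of a glycolytic mutase gene, listed at 0 in all 6 B6 libraries and in 3 BALB/c libraries and reaching 64.0 TPM in another. Pdcd5-ps was listed at 0 in 2 B6 libraries and reached 44.2 TPM in that strain. Both share every 31-base word with their parents. Genes here were chosen after their values were seen.

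The 14 pseudogenes with no parent assigned included Tmem250-ps, at 44.1 to 61.5 TPM over all libraries, and H2af-ps2, listed at 0 in all 6 B6 libraries and at a mean of 10.3 TPM in BALB/c (SD 3.58, n = 6). Tmem181c-ps and Tmem181b-ps, which are not processed copies, were higher in BALB/c by 1.63 (SE 0.10) and 2.32 (SE 0.36) on the log2(TPM + 1) scale, while Tmem181a, assigned to them by symbol, did not pass (0.19, limma adjusted p 0.151).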
